A study of Homo sapiens with 6 samples.

Results

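The miR-34 family was examined in small RNA libraries of MIO-M1 cells and of the extracellular vesicles (EV) that these cells release. Its members were chosen by name, as the 5p and 3p arms of miR-34a, miR-34b and miR-34c, which gave 6 of the 2576 mature miRNAs listed in the count tables. Of all listed miRNAs, 1188 had at least 1 count in any library, and 5 of the 6 miR-34 arms were among them. The family is best known as repressors of cell division and cell survival. MIR34A is transcribed on its own and in many tissues, whereas MIR34B and MIR34C share a transcript that is most abundant in ciliated epithelium, testis and brain. A miRNA binds messenger RNAs mainly through its seed, and miR-34 targets include messenger RNAs for cell cycle and anti-apoptotic proteins such as CDK4, CDK6, CCND1, MET and BCL2.

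MIO-M1 is an established human Müller glial cell line, labelled as wild type, from which all samples came, so that the data describe 1 line. Müller glia are the radial glia of the retina, which support its neurons and respond to its injury. There were 3 whole cell samples, of passages 22, 24 and 26, and 3 EV samples, of passages 23, 25 and 27. Within each group they are called replicates 1, 2 and 3, numbers given here in order of passage that pair no samples, and values for a group are listed in that order. The labels name no agent for either group. Cells were grown in medium with fetal calf serum. The labels give washing and then serum-free conditioning before EV were collected, whereas the methods give a longer conditioning in vesicle-depleted medium after fewer washes. EV were collected by differential centrifugation, and the methods add a treatment of intact EV with RNase. RNA of whole cells and RNA of EV were extracted with different kits, so the effect of the kit and that of the source cannot be told apart.

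The mature sequences below were taken from RefSeq on GRCh38.p14, which held 5 of the 6 arms, all but miR-34c-5p, and are shown so that the seeds can be compared. They run 5′ to 3′, with the seed, bases 2 to 8, in capitals.
hsa-miR-34a-5p: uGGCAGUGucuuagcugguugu
hsa-miR-34a-3p: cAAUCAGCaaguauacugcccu
hsa-miR-34b-5p: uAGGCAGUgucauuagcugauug
hsa-miR-34b-3p: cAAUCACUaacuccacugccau
hsa-miR-34c-3p: aAUCACUAaccacacggccagg

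miR-34a-5p lies on the minus strand at chr1:9151735-9151756 and miR-34a-3p at chr1:9151693-9151714. In GENCODE 29 their precursor MIR34A is within an exon of the long non-coding RNA gene MIR34AHG, on the same strand. miR-34b-5p lies on the plus strand at chr11:111512950-111512972, miR-34b-3p at chr11:111512987-111513008 and miR-34c-3p at chr11:111513484-111513505. The precursors MIR34B and MIR34C overlapped no other annotated gene. In the count tables, which name no genome build, 442 bases separate the end of miR-34b-3p from the start of miR-34c-5p. The seed of miR-34b-5p is that of miR-34a-5p moved by 1 base, since GGCAGUG stands at bases 3 to 9 of miR-34b-5p. Among the 5 arms with a sequence, the 3p arms of miR-34b and miR-34c were the most alike, with 17 of 21 aligned bases identical, and the seed of miR-34c-3p stands at bases 3 to 9 of miR-34b-3p.

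GGCAGUG was then looked for in the 2262 listed mature miRNAs that had a RefSeq sequence. It stood at bases 2 to 8 in 3 of them, miR-34a-5p, miR-449a and miR-449b-5p. It stood at bases 2 to 8 or 3 to 9 in 6, which adds miR-34b-5p, miR-449c-5p and miR-2682-5p. The last pair has AGGCAGU, the seed of miR-34b-5p, at bases 2 to 8. The miR-449 cluster is known from multiciliated cells, where it acts with miR-34b and miR-34c. These relatives are shown because miRNAs with the same seed share predicted targets, so that their counts bear on how much of that seed each source held.
hsa-miR-449a: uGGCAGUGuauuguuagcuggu
hsa-miR-449b-5p: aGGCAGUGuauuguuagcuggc
hsa-miR-449c-5p: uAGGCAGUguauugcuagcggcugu
hsa-miR-2682-5p: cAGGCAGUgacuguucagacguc
On the same build, the 3 miR-449 miRNAs lie on the minus strand at chr5:55170586-55170607, chr5:55170706-55170727 and chr5:55172313-55172337. miR-2682-5p lies on the minus strand at chr1:98045307-98045329.

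The values are raw counts of reads assigned to each mature miRNA. The library total was lowest in whole cell replicate 1, at 396025, and highest in whole cell replicate 2, at 3990900, while the EV totals spanned 1225541 to 3134561. CPM stands for counts scaled to a library total of 1000000, so CPM values are shares of all miRNA reads and not amounts per cell or per vesicle. In bulk RNA, fewer vesicles or cells with a miRNA and less of it in each cannot be told apart. Intervals are exact Clopper-Pearson 95% intervals and a count of 0 was read as allowing 3 counts, both for counting error only. Differential abundance was tested for the 430 miRNAs that reached 5 CPM in 3 or more libraries. The 6 Müller glia and neural retina markers were counted in both groups. Together they held 152000 to 161300 CPM in whole cells and 81760 to 110700 CPM in EV. In whole cells miR-125b-5p alone had 100500, 115000 and 116000 CPM. The log2 fold change, EV over whole cells, was above 0 for 3 of the 6, miR-9-5p included, and below 0 for 3. Of the latter, 2, miR-204-5p and miR-181a-5p, had a Benjamini-Hochberg adjusted p below 0.05 (edgeR). None of the 6 was called by edgeR, while DESeq2 called 1, miR-181a-5p, lower in EV (log2 fold change -2.845, adjusted p = 1.46e-05). For miR-125b-5p the adjusted p was 0.124 with edgeR and 0.0149 with DESeq2, with the log2 fold change below 0 in both. Summed markers of other cell types were higher in EV than in whole cells, and their values stand beside the seed relatives below.

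The miR-34 family was represented in both sources almost only by miR-34a-5p. Over the 6 libraries the arms held 634 counts, of which 567, or 89.4%, were miR-34a-5p. Its share of the family counts was 97.9%, 94.2% and 93.9% in the whole cell libraries and 100%, 69.2% and 100% in the EV libraries. Sequences differ in how well they are ligated and amplified, so these are shares of reads. Of the 6 arms, 5 had a count in whole cells, 2 had a count in EV, and 1, miR-34a-5p, passed the filter on low values.

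**Figure D1:**
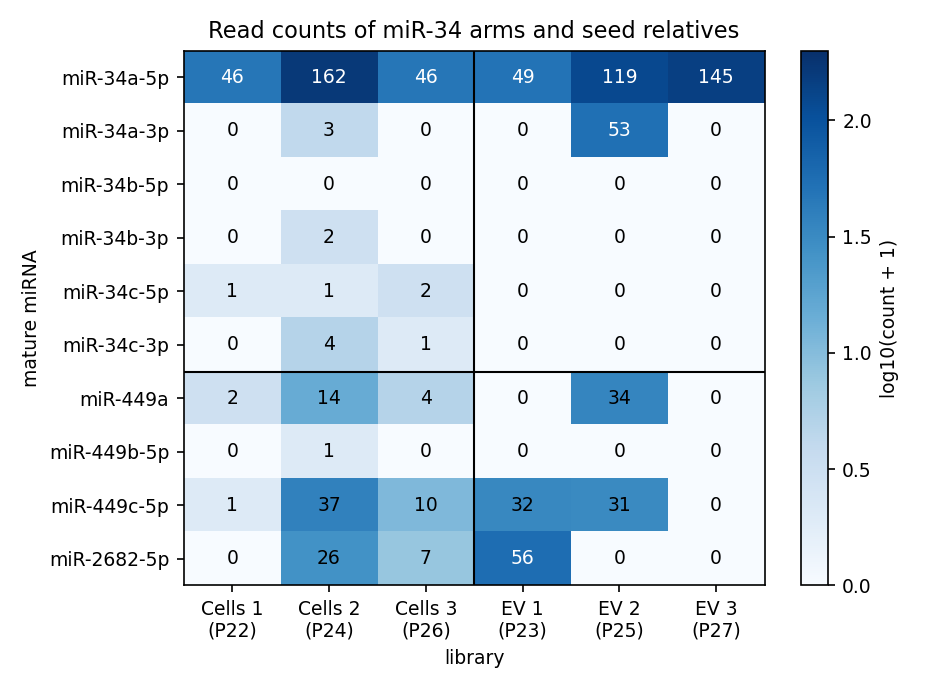
Read counts (number in each cell, colour on a log10(count + 1) scale) of the 6 miR-34 arms and the 4 seed relatives in the 3 whole cell and 3 EV libraries, with the passage in brackets. miR-34a-5p had 46 to 162 counts in whole cells and 49 to 145 in EV, while the 4 arms of miR-34b and miR-34c had 0 to 4 counts in whole cells and 0 in EV.

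miR-34a-5p, the guide arm of miR-34a, had 46, 162 and 46 counts in the whole cell libraries and 49, 119 and 145 counts in the EV libraries. In CPM this was 116 (95% interval 85.0 to 155), 40.6 (34.6 to 47.4) and 36.7 (26.9 to 49.0) in whole cells. In EV it was 39.98 (29.6 to 52.9), 58.4 (48.4 to 69.9) and 46.3 (39.0 to 54.4). Whole cell replicate 1 stood above every other library, with an interval that met none of theirs, and the other 5 libraries lay between 36.7 and 58.4 CPM. The 3 EV libraries therefore lay between the lowest and the highest whole cell library, and the groups overlapped.

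**Figure D2:**
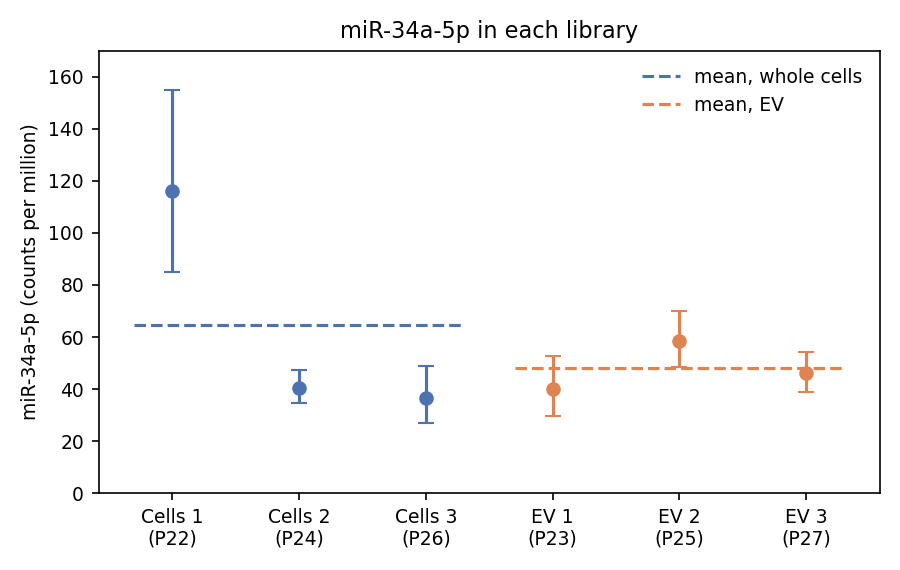
miR-34a-5p in CPM, counts per 1000000 miRNA counts, in each library (points) with exact 95% binomial intervals for counting error (bars) and the mean of each group (dashed lines). Whole cell replicate 1 is at 116 CPM and the other 5 libraries lie between 36.7 and 58.4 CPM.

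Whole cells averaged 64.5 ± 44.8 CPM (SD, n = 3), and EV averaged 48.2 ± 9.35 CPM (SD, n = 3). The difference, -16.3 CPM, was smaller than the whole cell SD (exact permutation test, two-sided, p = 0.9, with 0.1 the smallest p possible for 3 libraries against 3). In the fit across all 430 miRNAs, the log2 fold change of miR-34a-5p, EV over whole cells, was -0.33 (SE 0.86, edgeR quasi-likelihood test, Benjamini-Hochberg adjusted p = 0.819). The adjusted p ran from 0.613 to 0.965 over 13 alternative fits. The 95% interval of the log2 fold change ran from -2.34 to 1.68, that is from 5.06-fold lower to 3.20-fold higher in EV. A log2 fold change of 2.5 in either direction, the limit used for a call, lay outside this interval, but not outside that of every alternative. In 12 alternative edgeR fits, the lower bound ran from -3.81 to -2.16 and lay past the limit in 8, and the upper bound ran from 1.40 to 2.77 and lay past it in 1. These p-values measure the spread between these samples, each of a different passage of 1 line.

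Among all tested miRNAs, 25 were called at an adjusted p below 0.01 and a log2 fold change of 2.5 or more in size, which is 5.81%. Of these, 19 (4.42%) were higher and 6 (1.4%) lower in EV, and miR-34a-5p was not among them. Other scalings gave a more even split of higher and lower calls, 14 and 10 with RLE factors, 21 and 16 with library totals and 20 and 18 with upper-quartile factors. At an adjusted p below 0.05 with no limit on the change, 123 miRNAs (28.6%) passed, 63 (14.7%) higher and 60 (14%) lower in EV. The fitted change of miR-34a-5p was among the smaller ones, as 49 of the 430 miRNAs had a smaller absolute value, and the median over all tested miRNAs was -0.23. Its place by abundance was also close in both sources. By mean log2(CPM + 4) on TMM-scaled counts it ranked 213 of 430 in whole cells and 217 of 430 in EV.

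The sign of this small difference rested on whole cell replicate 1. Without that library the log2 fold change of miR-34a-5p was 0.05 and the difference in mean CPM was 9.54, both towards EV. The level of miR-34a-5p in whole cell replicate 1 was 3.004 times its mean in whole cell replicates 2 and 3. That ratio was 1.08 in the median of the 430 tested miRNAs, and 60 of them, miR-34a-5p included, had a ratio at least as high. On TMM-scaled library sizes the ratio was 2.29 and the median 0.825, again with 60 miRNAs at or above the value of miR-34a-5p. Whole cell replicate 1 was also the shallowest library, with a total of 396025, and the part of depth in its higher level was not tested.

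Between the EV libraries the measured values of miR-34a-5p were close. On the log2(CPM + 4) scale with TMM scaling its values were 5.59, 5.73 and 5.76 in EV replicates 1, 2 and 3, an SD of 0.0894, against a median SD of 0.84 over the tested miRNAs. A lower SD was found for 40 of the 430, but 35 of these had a count of 0 in every EV library, so 5 of those counted in EV varied less. In whole cells the values of miR-34a-5p were 6.65, 5.57 and 5.49, an SD of 0.65, and 273 miRNAs had a lower SD, against a median of 0.47. The spread was thus below the median in EV and above it in whole cells. Scaling moved the size in EV, where library totals alone gave miR-34a-5p an SD of 0.25 against a median of 0.86. A lower SD was then found for 62 miRNAs, the 35 with no EV count included. The spread was not a planned measure, and this second scaling was chosen after the data had been seen. With library totals the SD in whole cells was 0.87, above a median of 0.50.

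**Figure D3:**
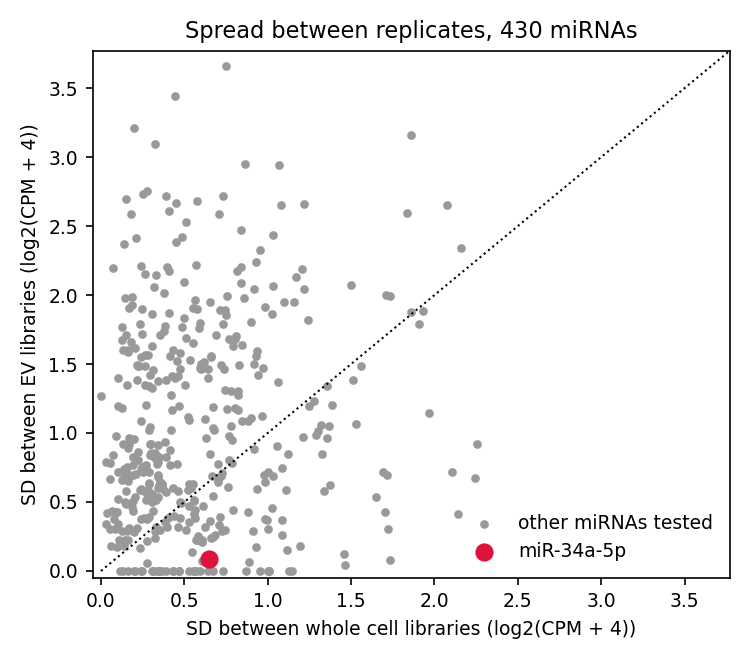
SD of log2(CPM + 4) on TMM-scaled counts between the 3 EV libraries (vertical) against that between the 3 whole cell libraries (horizontal) for each of the 430 tested miRNAs, with the dotted line marking equal SD. miR-34a-5p (large point) has an SD of 0.65 in whole cells and 0.0894 in EV, and the 35 points at an EV value of 0 are miRNAs with no count in any EV library.

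miR-34a-3p, the passenger arm of the same precursor, was found at a level above the limit of counting in a single library. It had 0, 3 and 0 counts in the whole cell libraries and 0, 53 and 0 counts in the EV libraries. In EV replicate 2 this was 26 CPM (95% interval 19.5 to 34), and in whole cell replicate 2 it was 0.752 CPM. The 0 counts allow up to 2.45 CPM in EV replicate 1 and 0.957 CPM in EV replicate 3. At the share seen in EV replicate 2, EV replicates 1 and 3 would have held 31.9 and 81.5 counts, where 0 were found. Whole cells averaged 0.251 ± 0.434 CPM and EV averaged 8.67 ± 15.0 CPM (SD, n = 3 each), a difference below the SD of the EV libraries (exact permutation test, two-sided, p = 1). All libraries but replicate 2 of each group were tied at 0, so this test could not reach a small p and cannot decide whether the groups differed. Without EV replicate 2 the difference was -0.251 CPM.

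The balance between the arms of miR-34a followed from these counts. The 5p arm took 100% (95% interval 92.3 to 100), 98.2% (94.8 to 99.6) and 100% (92.3 to 100) of the miR-34a counts in the whole cell libraries. In the EV libraries it took 100% (92.7 to 100), 69.2% (61.7 to 76.0) and 100% (97.5 to 100). The 5p arm was the major arm in every library, and EV replicate 2 stood below the other 5. The whole cell mean was 99.4% ± 1.05 and the EV mean 89.7% ± 17.8 (SD, n = 3 each, exact permutation test, two-sided, p = 1). All libraries but whole cell replicate 2 and EV replicate 2 were tied at 100%. With such ties the test could not reach a small p, so it cannot decide whether the balance differed.

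A count confined to 1 EV library was not particular to miR-34a-3p. Over all listed miRNAs, 133 had at least 10 counts in 1 EV library and 0 in the other EV libraries, 57 of them in EV replicate 1, 56 in EV replicate 2 and 20 in EV replicate 3. Among the whole cell libraries 4 miRNAs had such a pattern. The counts are of reads, and the methods name no step that merges reads copied from 1 starting molecule, so the intervals given here do not cover that source of spread.

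The arms of miR-34b and miR-34c, encoded on chromosome 11, were at the edge of detection in whole cells and were not counted in EV. miR-34b-5p had 0 counts in all 6 libraries. miR-34b-3p had 2 counts, both in whole cell replicate 2. miR-34c-5p had 1, 1 and 2 counts in whole cells and was the only one of these arms counted in each of them. miR-34c-3p had 0, 4 and 1 counts in the same libraries.

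Together the 4 arms of miR-34b and miR-34c held 11 counts over the whole cell total of 5639069 and 0 over the EV total of 6398737. In CPM, the highest value was 2.53 for miR-34c-5p in whole cell replicate 1, where it rested on 1 count. A count of 0 in EV allows up to 2.45, 1.47 and 0.957 CPM in EV replicates 1, 2 and 3, which overlaps the whole cell values of 2.53, 0.251 and 1.60 CPM for miR-34c-5p. These limits, taken library by library, do not settle whether the arms differ between whole cells and EV. The pooled counts of 11 and 0 were not tested, and no fold change is given. Low counts were also rarer in EV for all miRNAs, as 1 to 9 counts were found for 298 to 541 miRNAs in the whole cell libraries and for 25 to 44 in the EV libraries. Scaled down to the total of the shallowest library, 2 of the 5 arms counted in whole cells, miR-34a-5p and miR-34c-5p, would reach an expected count of 1 in any library, against 2 in EV. miR-34c-5p did so only in whole cell replicate 1, which is itself the shallowest library, so its place rests on the 1 count observed there.

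The seed relatives outside the family were low and uneven between libraries. miR-449a had 2, 14 and 4 counts in whole cells and 0, 34 and 0 in EV, so that its EV counts stood in the same library as those of miR-34a-3p. miR-449b-5p had 1 count, in whole cell replicate 2. miR-449c-5p had 1, 37 and 10 counts in whole cells and 32, 31 and 0 in EV. miR-2682-5p had 0, 26 and 7 counts in whole cells and 56, 0 and 0 in EV, all of the latter in EV replicate 1.

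For the relatives past the filter, the groups overlapped and the intervals were wide. miR-449c-5p had a log2 fold change of 0.94 (SE 1.66, 95% interval -2.93 to 4.81, Benjamini-Hochberg adjusted p = 0.738, edgeR quasi-likelihood test). miR-2682-5p had a log2 fold change of 1.83 (SE 2.35, 95% interval -3.66 to 7.32, adjusted p = 0.638 from the same edgeR test). Neither passed (0 of these 2 had an unadjusted p below 0.05), and changes past the limit of 2.5 in either direction lay inside both intervals. miR-449a and miR-449b-5p did not reach the filter and were not tested.

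The summed levels of marker lists for other cell types were higher in EV, though not for every member. The 8 markers of ciliated and other epithelium, which include miR-449a and miR-449b-5p, summed to 101.5 to 121 CPM in whole cells, where all 8 were counted, and to 439 to 1777 CPM in EV, where miR-449b-5p and miR-200b-3p were at 0. miR-203a alone had 1581, 453 and 340 CPM of the EV sums. Of the 5 markers tested, 0 were called by edgeR and 2 by DESeq2. At an adjusted p below 0.05 (edgeR), 2 were higher and 1 was lower in EV. The 9 blood and endothelial markers summed to 258 to 1193 CPM in whole cells, where miR-451a, miR-144-3p and miR-142-5p were at 0. In EV they summed to 2084 to 3122 CPM, and each of the 9 was counted in at least 1 library. In EV replicate 3, however, miR-144-3p, miR-142-5p, miR-223-3p and miR-150-5p were at 0, and the first and last of them also in EV replicate 1. Of the 5 tested, 3 were called higher by edgeR and 4 by DESeq2. miR-486-5p, called by neither, alone had 164, 875 and 1161 CPM of the whole cell sums and 1217, 1711 and 1197 CPM of the EV sums. Its log2 fold change was 0.78 (adjusted p = 0.487, edgeR). The liver and serum marker miR-122-5p ran from 7.58 to 11.2 CPM in whole cells and from 91.2 to 200 CPM in EV. Its log2 fold change was 4.10 with an adjusted p of 0.0124 (edgeR), so it was not called by edgeR. DESeq2 called it, at an adjusted p of 6.05e-06. The 3 muscle markers summed to 22.7 to 35.1 CPM in whole cells and to 91.4 to 349 CPM in EV. Among them miR-206 was at 0 in whole cells and was counted in EV replicate 3 only. miR-1 was called higher, while miR-133a-3p had 15.2, 28.8 and 32.0 CPM in whole cells and 6.53, 13.7 and 0 CPM in EV. Photoreceptor markers summed to 227 to 333 CPM and 1151 to 1218 CPM in whole cells and EV, with 0 of 3 called by edgeR or DESeq2. Of these, 2 were higher in EV at an adjusted p below 0.05 (edgeR). They were miR-182-5p (log2 fold change 2.26, adjusted p = 0.00872) and miR-183-5p (2.07, adjusted p = 0.0171). Both changes were smaller than the fold limit used for a call. The remaining marker, miR-96-5p, had a log2 fold change of 0.094 (adjusted p = 0.985, edgeR). Neuronal markers, of which miR-124-3p was at 0 in all 6 libraries, summed to 1264 to 1520 CPM and 1747 to 1870 CPM, and miR-128-3p, the one tested, had a log2 fold change of 0.37 (adjusted p = 0.408, edgeR). The part of RNA from other sources, calf serum included, in the EV levels of the miR-34 arms and their seed relatives was not tested.

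Summed by seed, miR-34a-5p accounted for most of the reads with GGCAGUG at bases 2 to 8. The sums cover only the miRNAs searched above, so they leave out the 1, 1 and 2 whole cell counts of miR-34c-5p. These reads came to 121, 44.4 and 39.9 CPM in whole cells and to 39.98, 75.05 and 46.3 CPM in EV. miR-34a-5p gave 95.8%, 91.5% and 92.0% of them in whole cells and 100%, 77.8% and 100% in EV. With the seed at bases 3 to 9 counted as well, the sums were 124, 60.1 and 53.5 CPM in whole cells and 112, 90.3 and 46.3 CPM in EV. The share of miR-34a-5p in this wider sum ranged from 67.5% to 93.9% in whole cells and from 35.8%, in EV replicate 1, to 100%, in EV replicate 3. In EV, miR-449c-5p joined miR-34a-5p in replicates 1 and 2, miR-2682-5p only in replicate 1 and miR-449a only in replicate 2. No relative did so in EV replicate 3. The whole cell and EV sums overlapped by either count.

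The miRNAs whose pattern over the 6 libraries was nearest to that of miR-34a-5p were found by the root mean square difference of log2(CPM + 4), each miRNA being centred on its own mean. miR-26b-5p was nearest, at 0.232, against a median of 1.22 over the 429 other tested miRNAs. It had 17330, 7245 and 5744 CPM in whole cells and 5078, 10370 and 9818 CPM in EV, so it was likewise highest in whole cell replicate 1. It was followed by let-7g-5p at 0.276, of the let-7 family that accompanies differentiation, by miR-26a-5p at 0.388, by miR-15b-3p at 0.402 and by miR-329-3p at 0.419, of the imprinted cluster on chromosome 14. All 5 were also the nearest with a pseudocount of 1. None of them was called, with log2 fold changes from -0.74 for miR-15b-3p to 0.03 for miR-26a-5p. miR-26a-5p and miR-329-3p are each encoded at 2 loci, which their counts do not tell apart.

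**Figure D4:**
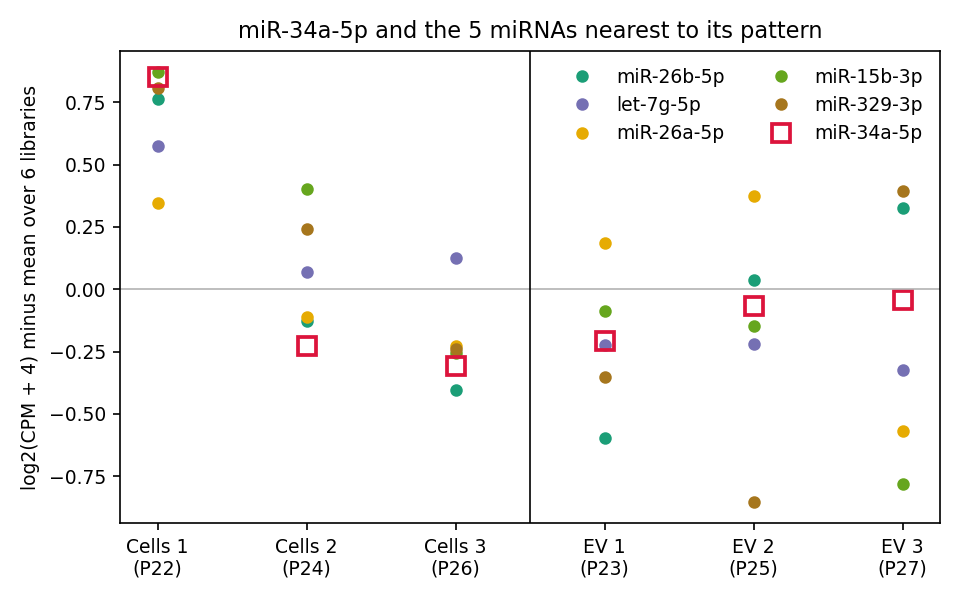
log2(CPM + 4) on TMM-scaled counts, minus its mean over the 6 libraries, for miR-34a-5p (open squares) and the 5 miRNAs nearest to its pattern (dots) in each library. All 6 are highest in whole cell replicate 1 except miR-26a-5p, which is highest in EV replicate 2, and the root mean square differences from miR-34a-5p run from 0.232 to 0.419.

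**Figure D5:**
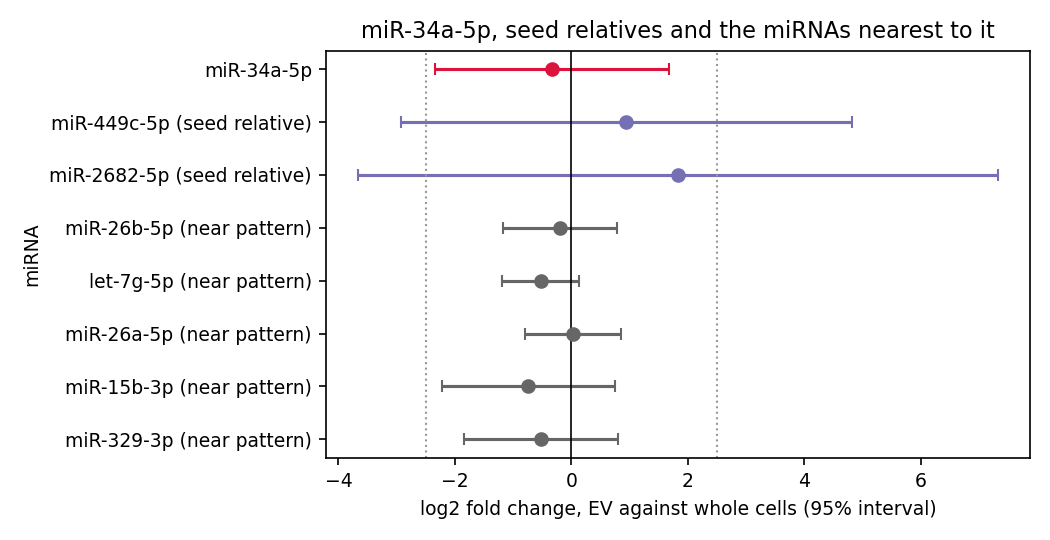
Log2 fold change of EV against whole cells with its 95% interval (edgeR, 430 miRNAs tested) for miR-34a-5p, the 2 seed relatives past the filter and the 5 miRNAs nearest to the pattern of miR-34a-5p, with dotted lines at the limit of 2.5 in each direction. miR-34a-5p lies at -0.33 with an interval from -2.34 to 1.68, and none of those drawn was called.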

How the data were processed

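Small RNA libraries (QIAseq miRNA kit, Illumina sequencing) of 3 whole cell and 3 EV samples were used. The authors trimmed adapters with Cutadapt, aligned reads to miRBase and deposited the raw count of reads per mature miRNA and library. According to the file headers, counting was by featureCounts 1.5.0-p1 after a Bowtie 1 alignment to miRBase 20. The methods differ, with Bowtie2 and a later miRBase release. No build is named, so sequences and coordinates came from RefSeq and GENCODE 29. A strand setting of 1 was used by the authors in counting.

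Samples were grouped by the fraction in their labels. miRNAs that reached 5 CPM in 3 or more of the 6 libraries were scaled by TMM and tested in edgeR 4.0.16 (R 4.3.3) by the quasi-likelihood test, with Benjamini-Hochberg adjustment over all 430, and called at an adjusted p below 0.01 with a log2 fold change of 2.5 or more in size. Log2 values used a pseudocount of 4. Arms with at least 10 counts over the 6 libraries, 2 of 6, had two-sided exact permutation tests of CPM. No library was a copy of another (the chi-square between libraries was 41.9 or more per degree of freedom).

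Named were all arms, their seed relatives, marker lists and the 5 miRNAs most like miR-34a-5p. Members and lists were chosen with earlier results of these data known. A further set of miRNA lists is not reported here. The marker miR-133a was taken as its 3p arm. Alternatives were DESeq2 1.42.0, RLE, upper-quartile or no factors, other filters and thresholds, thinning to the smallest total, other CPM denominators, a pseudocount of 1 and each library left out. Figures used matplotlib 3.10.9.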

Additional observations from a re-analysis of the deposited data

How the results depend on the processing

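Over the 7 alternatives that kept all libraries, the log2 fold change of miR-34a-5p stayed between -0.63 and -0.25, and it was called in none of the 13. With each library left out it ran from -0.64 to 0.053, the highest without whole cell replicate 1, and the CPM difference of miR-34a-5p from -30.2 to 9.54, also the highest without that library. The CPM difference of miR-34a-3p ran from -0.251, without EV replicate 2, to 12.8, and the difference in arm balance from -14.8 to 0.606 percentage points, the latter without EV replicate 2. With no filter on low values none of the arms was called (adjusted p from 0.0741 to 0.709, edgeR).

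The number of miRNAs called, 25, was 72 with DESeq2, 38 with upper-quartile factors, 45 with no filter, 93 at an adjusted p below 0.05 with the fold limit and 123 without it. With DESeq2 42 were higher and 30 lower. RLE factors and DESeq2 each moved the median log2 fold change of all tested miRNAs by -0.18, and under both miR-34a-5p remained lower in EV and uncalled. With each library left out the number ran from 0 to 31. It was 16, 7 and 0 without whole cell replicates 1, 2 and 3, and 11, 0 and 31 without EV replicates 1, 2 and 3, where the fits giving 0 (edgeR) had 121 and 169 miRNAs at an unadjusted p below 0.05. At the smallest total, 2 arms in whole cells in place of 5 were expected at a count of 1 or more. The SD of miR-34a-5p between EV libraries was 0.254 with library totals. Apart from the fits with fewer libraries, the cause of these shifts was not tested.

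No paired analysis was possible because the labels give the groups no shared replicate or passage number. All statements on miR-34b and miR-34c are limited by low counts, 11 in total and all of them in whole cells. The pooled library total was 5639069 in whole cells and 6398737 in EV. The part of depth in the lack of EV counts of these arms was not tested.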
